A study of Mus musculus with 24 samples.

Results

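The account covers 10 immediate early genes that neurons switch on with activity: Fos, Fosb, Junb, Egr1, Egr2, Egr4, Arc, Npas4, Nr4a1 and Ier2. They were taken by gene name from both count tables and make up 10 of the 54532 genes measured. The libraries are polyA-selected RNA from mice of the C57BL/6J strain, either Polr3a mutant or wild type. Mutants and wild types alike received tamoxifen, given to trigger recombination at postnatal day 28 (P28). The 24 libraries fall into 6 groups of 4. These are mutant and wild type cerebrum at P42, mutant and wild type cerebrum at P75, and mutant and wild type cerebellum at P42. Tamoxifen thus preceded sampling by 14 days at P42 and by 47 days at P75. Both cerebrum groups at P42 and the mutant cerebellum group held 2 males and 2 females, the wild type cerebellum group held 3 males and 1 female, and all P75 libraries came from males. The labels name neither the driver of recombination nor whether wild types carried a recombinase, and they do not state how many animals gave the libraries. The p-values therefore measure the spread between libraries, some of which may share an animal.

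Immediate early genes are transcribed within minutes of a stimulus, through transcription factors already present in the cell, and their messages decay fast. In neurons the stimulus is usually synaptic input and calcium entry, read out at their promoters by factors such as CREB and SRF, and many of the same genes also answer growth factors and stress in other cells. FOS and FOSB pair with JUNB and other JUN proteins to form AP-1, the EGR proteins are zinc finger transcription factors, NPAS4 is a calcium-dependent basic helix-loop-helix factor, and NR4A1 is an orphan nuclear receptor. ARC is not a transcription factor: it acts at synapses, where it promotes removal of glutamate receptors. IER2 is a small nuclear protein of the primary response. The mutated gene, Polr3a, codes for the catalytic core of RNA polymerase III, the enzyme behind transfer RNAs and other short noncoding RNAs.

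Total counts per library ran from 13832721 to 23175864. A member's counts in a cerebrum library ran from 28 reads (Egr2) to 17961 reads (Egr1), and in cerebellum Egr2 had at most 15 reads. Polr3a messenger RNA did not pass the test in any comparison of mutants with wild types (adjusted p = 0.562 in cerebrum and 0.984 in cerebellum at P42). It lay between 30.0 and 33.1 CPM (counts per 1000000 counted reads, after TMM scaling) in mutant and between 30.4 and 37.8 CPM in wild type cerebrum at P75, with a log2 fold change of -0.10 ± 0.09 (SE, adjusted p = 0.542). The labels do not say what the mutation does to the message, so its level does not check the genotype labels. The tissue labels matched their markers: in wild types, 13 of 13 cerebellar neuron genes were lower in cerebrum and 16 of 19 genes of cortical and hippocampal excitatory neurons were higher there.

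RefSeq promoter windows of GRCm38.p6, from 250 bases before to 50 bases after the transcription start, were used for 7 of the 10 members: Fos, Fosb, Junb, Egr2, Egr4, Npas4 and Nr4a1. The windows of Fos, Fosb, Junb, Egr4, Npas4 and Nr4a1 are shown because they carry the core of the CREB binding motif. They cover chr12:85473640-85473939 (Fos, plus strand), chr7:19309996-19310295 (Fosb, minus strand), chr8:84978699-84978998 (Junb, minus strand), chr6:85513540-85513839 (Egr4, minus strand), chr19:4989922-4990221 (Npas4, minus strand) and chr15:101266596-101266895 (Nr4a1, plus strand), each read 5′ to 3′ along the gene. Capitals mark every TGACG and its reverse complement CGTCA.
Fos: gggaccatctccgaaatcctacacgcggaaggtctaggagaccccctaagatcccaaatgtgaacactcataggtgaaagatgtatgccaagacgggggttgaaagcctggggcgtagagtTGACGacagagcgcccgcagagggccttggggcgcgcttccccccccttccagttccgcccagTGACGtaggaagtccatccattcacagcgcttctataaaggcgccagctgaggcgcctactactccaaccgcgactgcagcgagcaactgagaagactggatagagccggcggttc
Fosb: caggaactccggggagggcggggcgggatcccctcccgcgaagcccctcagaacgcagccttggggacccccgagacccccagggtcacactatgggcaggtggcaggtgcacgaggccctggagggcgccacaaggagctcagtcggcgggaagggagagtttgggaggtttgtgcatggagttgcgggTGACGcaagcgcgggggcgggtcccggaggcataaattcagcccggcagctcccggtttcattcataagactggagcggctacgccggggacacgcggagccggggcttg
Junb: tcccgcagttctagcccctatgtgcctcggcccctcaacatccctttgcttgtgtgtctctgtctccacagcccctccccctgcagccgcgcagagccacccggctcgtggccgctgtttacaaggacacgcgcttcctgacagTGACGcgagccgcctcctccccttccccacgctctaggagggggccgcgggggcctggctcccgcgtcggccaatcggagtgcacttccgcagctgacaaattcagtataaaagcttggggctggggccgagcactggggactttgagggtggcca
Egr4: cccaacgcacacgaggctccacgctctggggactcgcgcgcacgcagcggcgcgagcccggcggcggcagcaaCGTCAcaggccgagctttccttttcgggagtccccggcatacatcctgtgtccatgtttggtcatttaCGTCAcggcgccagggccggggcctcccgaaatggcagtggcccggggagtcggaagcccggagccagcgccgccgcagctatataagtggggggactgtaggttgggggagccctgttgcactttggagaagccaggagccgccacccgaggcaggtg
Npas4: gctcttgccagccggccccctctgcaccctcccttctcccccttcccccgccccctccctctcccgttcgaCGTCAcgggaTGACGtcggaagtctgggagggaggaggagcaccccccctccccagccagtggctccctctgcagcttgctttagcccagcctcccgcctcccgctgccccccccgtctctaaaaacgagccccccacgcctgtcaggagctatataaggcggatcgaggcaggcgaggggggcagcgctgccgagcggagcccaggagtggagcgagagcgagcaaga
Nr4a1: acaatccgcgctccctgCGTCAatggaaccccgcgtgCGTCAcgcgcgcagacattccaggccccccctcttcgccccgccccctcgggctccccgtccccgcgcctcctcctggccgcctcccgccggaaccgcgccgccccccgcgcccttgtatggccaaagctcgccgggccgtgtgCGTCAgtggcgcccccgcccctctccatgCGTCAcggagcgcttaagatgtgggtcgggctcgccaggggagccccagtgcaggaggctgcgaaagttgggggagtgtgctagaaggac

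The letters TGACG or CGTCA stood in 6 of the 7 windows, all but that of Egr2, against 20.9% of all 27025 RefSeq promoter windows of the same length. Fos held the core at -129 and -66 relative to the start, Fosb at -60, Junb at -106, and Npas4 at -179 and -169, on opposite strands. Nr4a1 held it 4 times, at -233, -213, -69 and -40, and Egr4 held it at -177 and -109. Positions count from the RefSeq transcription start of each window, which need not be the edge of the gene coordinates given below. For Nr4a1 that start lies inside the gene, and for Junb just outside it. The whole palindrome TGACGTCA, of which TGACG is a part, was in 0 of the 7 windows and in 1.85% of all windows. The EGR motif GCGNGGGCG was in 2 of the 7 (Fosb and Nr4a1), against 5.53% of all windows. The AP-1 motif TGANTCA, found in 7.92% of all windows, and the SRF-binding CArG box, found in 1.59%, were in 0 of the 7. Both strands were searched for every motif, and a match describes letters in a window, not binding. Sites outside these windows, and any at Egr1, Arc and Ier2, were not searched, so a motif missing here may stand elsewhere.

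The members lie on 8 chromosomes of the mouse genome build mm10 (GRCm38), and all are annotated as protein coding. The AP-1 genes are Fos at chr12:85473890-85477273, Fosb at chr7:19302696-19310051 and Junb at chr8:84974484-84978718. The EGR genes are Egr1 at chr18:34859823-34864984, Egr2 at chr10:67535475-67542188 and Egr4 at chr6:85511121-85513589. The others are Arc at chr15:74669083-74672570, Npas4 at chr19:4984355-4989971, Nr4a1 at chr15:101254269-101274795 and Ier2 at chr8:84661331-84662852. Junb overlaps Prdx2, a peroxidase gene on the opposite strand. Since the sources used here do not say whether counting used strand, reads from the overlap of Junb and Prdx2 cannot be told apart and the Junb values are uncertain to that extent.

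**Figure D1:**
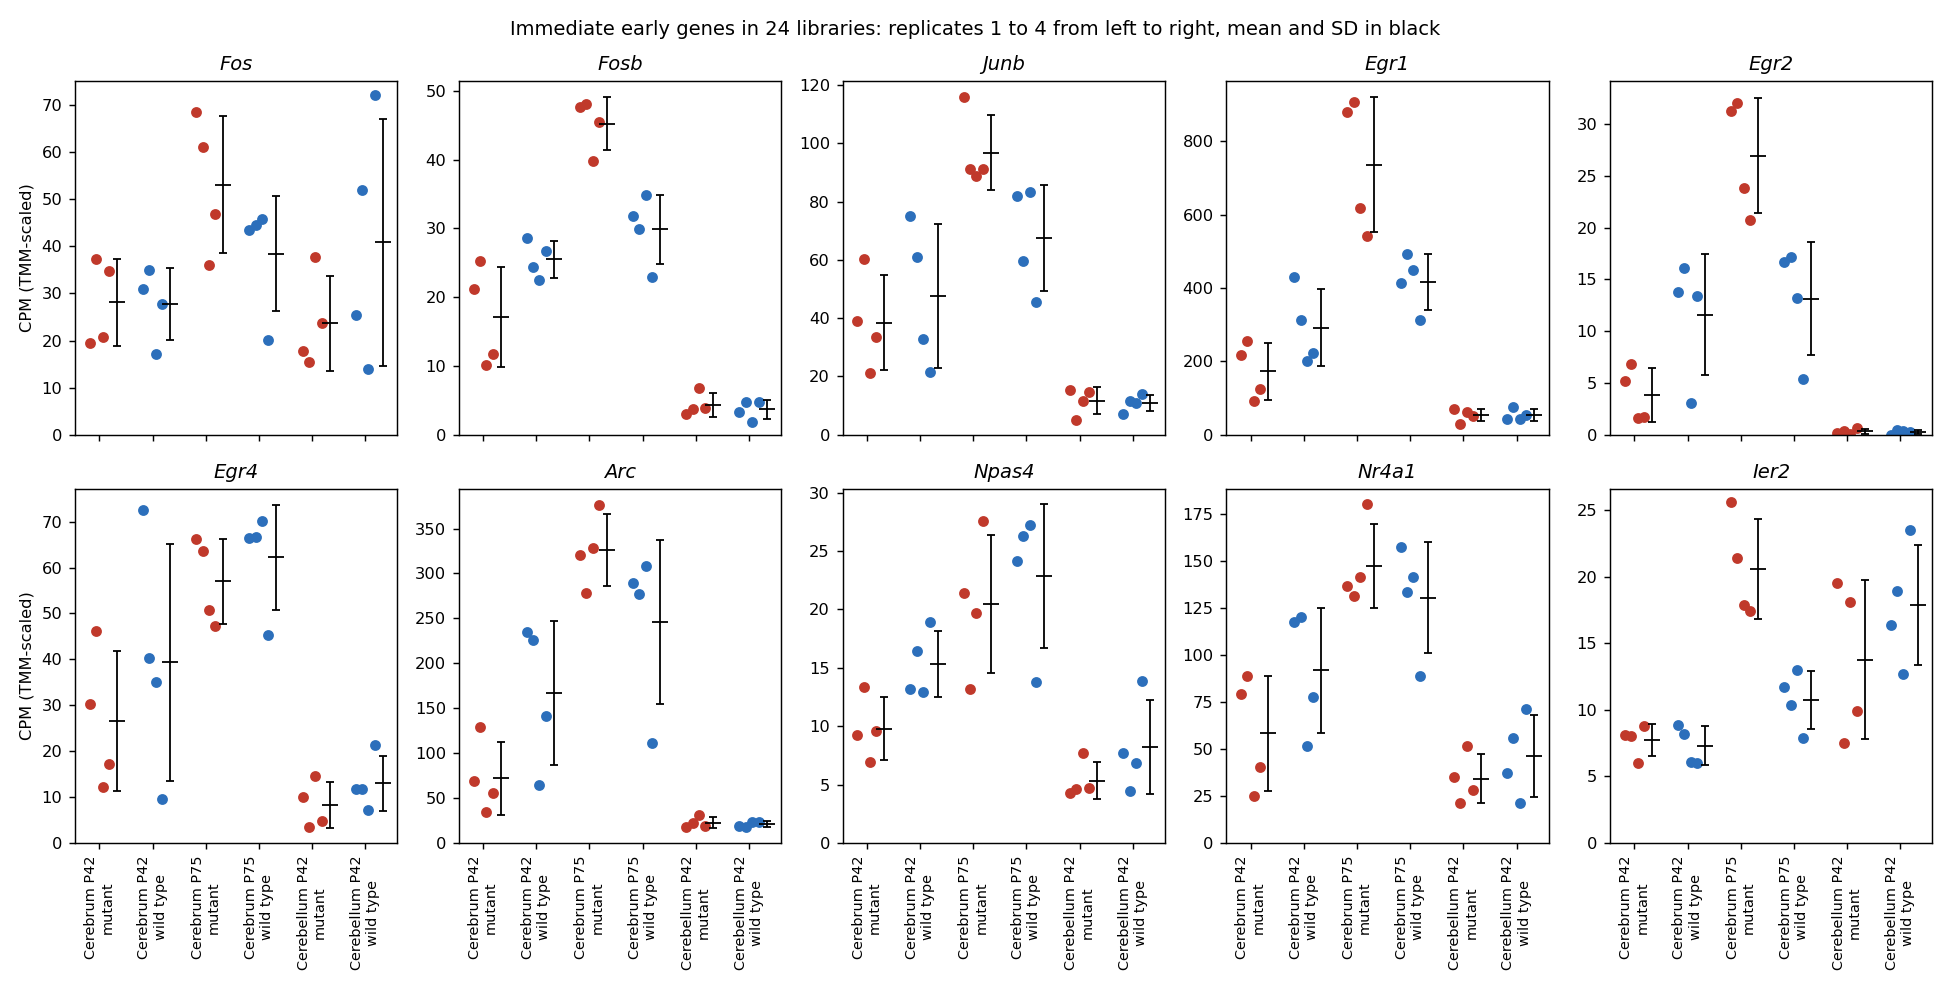
CPM of each immediate early gene in the 24 libraries, with TMM-scaled CPM on the vertical axis and the groups on the horizontal axis; red points are mutants, blue points wild types, and black bars the mean and SD of 4 libraries. The wild type mean at P42 is higher in cerebrum than in cerebellum for 8 of 10 genes, all but Fos and Ier2, and the mutant points stand above all wild type points at P75 for Fosb, Junb, Egr1, Egr2 and Ier2.

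Per length of transcript, Egr1 and Arc were the most abundant members in cerebrum and Egr2 and Fosb were among the least. In wild type cerebrum at P42, Egr1 averaged 65.1 CPM per kilobase, Arc 54.6, Nr4a1 26.1, Junb 20.7, Egr4 18.3 and Fos 11.8. Below these came Ier2 at 4.80 CPM per kilobase, Npas4 at 4.69, Fosb at 4.09 and Egr2 at 3.41. Each member's range over the 4 libraries overlapped that of its neighbour in this order except between Fos (7.27 to 14.9) and Ier2 (3.97 to 5.84). In wild type cerebrum at P75 the same 6 genes led, with Egr1 at 93.0 and Arc at 80.6 CPM per kilobase. The P42 and P75 tables are separate, so levels set across ages cannot be told apart from differences between the tables. In wild type cerebellum at P42 the order was another one: Fos led with 17.4 CPM per kilobase, ahead of Nr4a1 at 13.2, Egr1 at 12.1 and Ier2 at 11.8, whose ranges all overlapped, while Fosb was at 0.589 and Egr2 at 0.0837.

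Cerebrum and cerebellum differed in most members. Egr2, known for its part in hindbrain and myelinating Schwann cell development as well as in activity responses, had 13.8, 16.1, 3.07 and 13.4 CPM in the wild type cerebrum libraries at P42, against 0, 0.486, 0.359 and 0.294 CPM in the wild type cerebellum libraries. Every cerebrum library stood above every cerebellum library for Egr2. It had 0, 7, 5 and 5 reads in cerebellum and entered the tissue test only through cerebrum, where it is high, so its difference is given as a description with no test. Of the other 9 members, 8 passed the test between wild type libraries (edgeR quasi-likelihood, adjusted p under 0.05), 7 higher and 1 lower in cerebrum. Over all genes tested 30.5% passed in either direction, 16.4% as higher and 14.1% as lower. Scaling by library size only moved the median log2 fold change of all genes to -0.15 (-0.03 under TMM) and the split of calls to 2424 higher and 3500 lower (2943 and 2529 under TMM). Arc averaged 167 ± 80.4 CPM in cerebrum and 20.7 ± 3.29 CPM in cerebellum (SD, n = 4 each), a log2 fold change of 3.03 ± 0.36 (SE, adjusted p = 0.000133). Fosb was higher in cerebrum by 2.83, Egr1 by 2.54 and Junb by 2.20 on the log2 scale. Egr4 (1.67, adjusted p = 0.0317), Nr4a1 (0.99, adjusted p = 0.0465) and Npas4 (0.86, adjusted p = 0.0117) were also higher, but leaving out single libraries gave adjusted p up to 0.0957 for Egr4 and 0.219 for Nr4a1. Egr4 did not pass without cerebrum replicate 1 or 2 or cerebellum replicate 1, 2 or 3, and Nr4a1 did not pass without cerebrum replicate 1 or 2, without cerebellum replicate 1, 3 or 4, or with library size scaling (adjusted p = 0.0692).

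Ier2 ran the other way. It had 8.89, 8.20, 6.09 and 6.04 CPM in wild type cerebrum, against 16.4, 18.9, 12.7 and 23.5 CPM in wild type cerebellum. No cerebrum library reached the lowest cerebellum library, and the log2 fold change was -1.25 ± 0.22 (SE, adjusted p = 0.00171). Fos did not pass, with a log2 fold change of -0.58 ± 0.37 (SE, adjusted p = 0.264). In bulk tissue, fewer cells that express a gene and less of its RNA per cell cannot be told apart.

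At P75, 47 days after tamoxifen, 5 of 10 members rose in mutant cerebrum, 0 fell and 5 did not pass. The 5 that rose were Ier2, Fosb, Egr1, Egr2 and Junb, with log2 fold changes between 0.52 and 1.04. In this comparison 14.3% of all 17523 genes tested passed in either direction, 7.66% as higher and 6.62% as lower. Scaling by library size only gave 2313 higher and 547 lower calls over all genes (1342 and 1160 under TMM) and a median of 0.11 over all genes, and the members that rose numbered 5 there too. The median log2 fold change was 0.49 over the members and 0.00 over all genes tested. For each of the 5, all 4 mutant libraries stood above all 4 wild type libraries, a pattern that 10.1% of all genes tested showed. In the authors' deposited table, 5 members had an adjusted p under 0.05, a count whose share over all its genes was not computed. Its log2 fold changes had the same sign for 10 of 10 members. At P42 the signs matched for 9 of 10 members in cerebrum and 8 of 9 in cerebellum, with 0 members under 0.05 in either. The deposited values come from the same libraries, so the match is no independent support.

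Among the AP-1 genes, Fosb, whose messages include the source of the long-lived ΔFosB form, had 47.6, 48.1, 39.8 and 45.5 CPM in the mutant libraries, against 31.7, 29.9, 34.8 and 22.9 CPM in wild types. The mutant values lay close together and above every wild type value, and Fosb rose by 0.60 ± 0.12 on the log2 scale (SE, adjusted p = 0.00363). Junb had 116, 91.3, 88.8 and 91.2 CPM in mutants, against 81.9, 59.6, 83.1 and 45.7 CPM in wild types. The gap between the groups was small, 88.8 against 83.1 CPM, beside the spread of the wild types. Junb rose by 0.52 ± 0.16 (SE, adjusted p = 0.0397), a call that was lost in 4 of 8 cases when single libraries were left out: mutant replicate 1 (adjusted p = 0.133), mutant replicate 2 (0.0534), wild type replicate 2 (0.0893) or wild type replicate 4 (0.0889). Fos had 68.5, 61.1, 36.0 and 46.7 CPM in mutants, against 43.5, 44.4, 45.8 and 20.2 CPM in wild types. The Fos groups overlapped, and its log2 fold change of 0.46 ± 0.22 (95% interval -0.02 to 0.94) did not pass (SE, adjusted p = 0.192).

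Of the EGR genes, Egr1, a factor widely used as a marker of recent neuronal activity, had 879, 906, 619 and 541 CPM in mutants, against 414, 493, 449 and 313 CPM in wild types. Mutant replicates 1 and 2 were the highest, every mutant was above every wild type, and Egr1 rose by 0.82 ± 0.16 (SE, adjusted p = 0.00412). Egr2 had 31.3, 32.0, 23.9 and 20.7 CPM in mutants, against 16.7, 17.2, 13.2 and 5.40 CPM in wild types. Egr2 rose by 1.04 ± 0.26 (SE, adjusted p = 0.0154), and without mutant replicate 1 its adjusted p was 0.0507. Egr4 had 66.1, 63.7, 50.8 and 47.3 CPM in mutants, against 66.6, 66.8, 70.2 and 45.3 CPM in wild types. The Egr4 groups overlapped, and its log2 fold change of -0.13 had a 95% interval of -0.42 to 0.16 (adjusted p = 0.588).

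Ier2 had the smallest p of the members. It had 25.6, 21.4, 17.9 and 17.5 CPM in mutants, against 11.7, 10.3, 13.0 and 7.90 CPM in wild types, with no overlap. Ier2 rose by 0.93 ± 0.16 (SE, adjusted p = 0.00181). The synaptic gene Arc had 321, 279, 329 and 376 CPM in mutants, against 290, 277, 308 and 111 CPM in wild types; only wild type replicate 4 was far below the mutants. The log2 fold change of Arc was 0.40 ± 0.22 (SE, adjusted p = 0.254). Nr4a1 (131 to 180 CPM in mutants, 88.6 to 157 CPM in wild types) had 0.18 ± 0.14 (SE, adjusted p = 0.462). Npas4 (13.2 to 27.6 CPM in mutants, 13.8 to 27.2 CPM in wild types) had -0.17 ± 0.22, with a 95% interval of -0.63 to 0.29 (adjusted p = 0.664).

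Wild type replicate 4 was the lowest of its group for all 10 members, on average 0.613 below the group mean on the log2(CPM + 1) scale. The comparison was therefore also made without it: 4 members rose, Junb no longer passed, and the median log2 fold change of the members was 0.31. Over all genes the calls then numbered 1634 of 17999, 972 of them higher, against 2502 of 17523 with it. Without mutant replicate 1, 3 members rose and 1356 of 17798 genes were called. Fosb, Egr1, Egr2 and Ier2 passed with and without wild type replicate 4, and Egr2 had a log2 fold change of 0.78 without that wild type library.

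**Figure D2:**
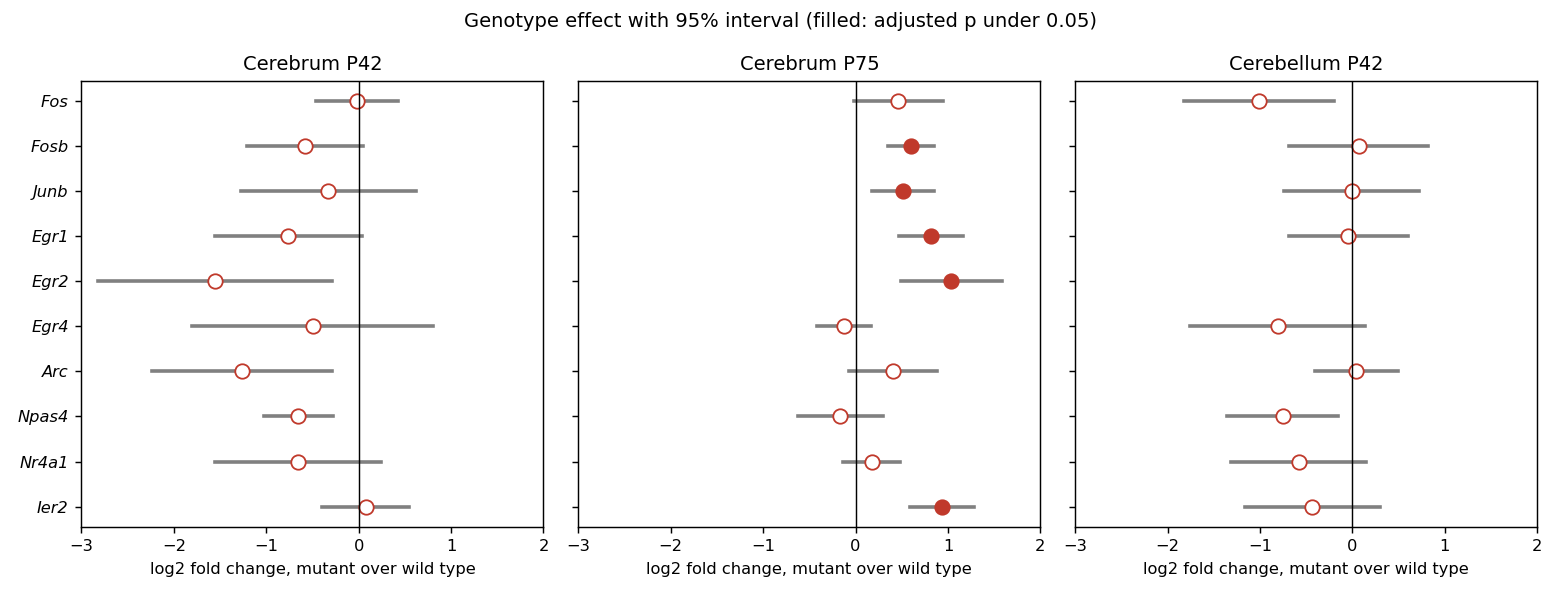
Genotype effect on each member in cerebrum at P42, cerebrum at P75 and cerebellum at P42, as the log2 fold change of mutant over wild type on the horizontal axis; bars are 95% intervals from edgeR and filled points have an adjusted p under 0.05. The filled points are Fosb, Junb, Egr1, Egr2 and Ier2 at P75, between 0.52 and 1.04, while at P42 no point is filled and 9 of 10 lie below 0 in cerebrum.

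Other gene groups moved in the same P75 libraries. All 14 interferon-stimulated genes rose (summed level 461 to 1219 CPM in mutants, 59.7 to 81.8 CPM in wild types), as did 9 of 12 microglia markers (561 to 1132 CPM in mutants, 405 to 436 CPM in wild types) and 6 of 14 markers of endothelium and mural cells (571 to 641 CPM in mutants, 457 to 503 CPM in wild types). Of 19 markers of cortical and hippocampal excitatory neurons, 0 rose and 12 fell (3165 to 4389 CPM in mutants, 5159 to 5629 CPM in wild types). No marker of these lists was at 0 in a P75 library. Their part in the members' changes was not tested.

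In the wider primary response at P75, 10 of 34 other rapid primary response genes rose and 0 fell, with a median log2 fold change of 0.22. The strongest by p were Jun, the classic AP-1 partner of FOS, which averaged 141 CPM in mutants against 57.2 CPM in wild types (log2 fold change 1.30 ± 0.11, SE, adjusted p = 6.97e-06), and the stress-inducible Gadd45b, at 28.6 CPM in mutants against 13.1 CPM in wild types (1.12 ± 0.12, SE, adjusted p = 2.82e-05). Of 24 delayed activity-regulated genes, which follow the immediate early genes by hours, 5 rose and 5 fell. Vgf, a secreted neuropeptide precursor, rose by 0.68 ± 0.08 (SE), and Rgs4, a brake on G protein signalling, fell by 0.72 on the log2 scale with an SE of 0.09. Of 38 genes for upstream signalling and transcription factors, which carry calcium and kinase signals to the promoters of the members, 2 rose and 11 fell. The calcium-dependent kinase genes Camkk2 and Camk2a fell by 0.74 and 0.65 on the log2 scale. Of 15 feedback repressors of these pathways, 3 rose and 1 fell, and the smallest p were those of Spry2 and Dusp4, which rose by 0.42 and 0.41. Of 12 heat shock genes 2 rose and 3 fell, and Hspa1a, which rose by 1.30 ± 0.23 (SE), and Hspa1b, which rose by 1.07 ± 0.20 (SE), code for near-identical stress-inducible proteins, so the split of reads between them is uncertain.

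**Figure D3:**
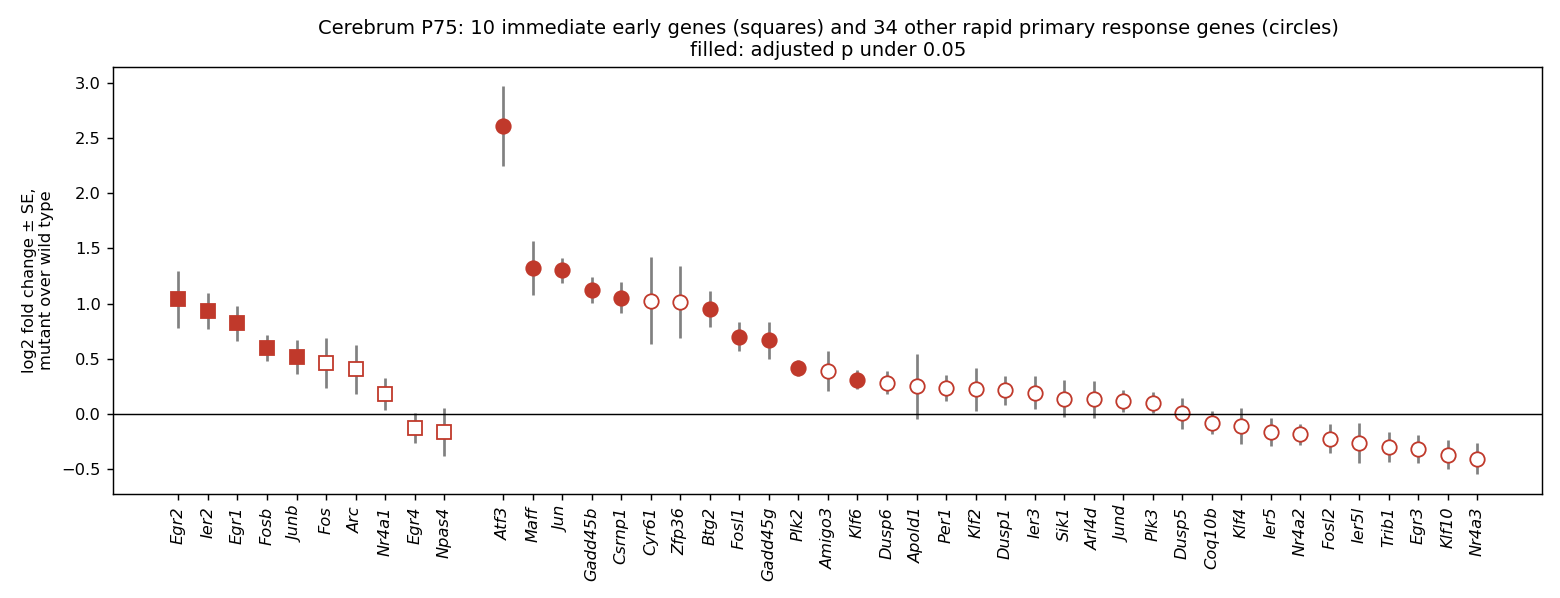
Log2 fold change with its SE (vertical axis, mutant over wild type) in cerebrum at P75 for the 10 members (squares) and 34 other rapid primary response genes (circles), ordered by size within each group; filled symbols have an adjusted p under 0.05. The members reach from -0.17 (Npas4) to 1.04 (Egr2) and the other genes from -0.41 (Nr4a3) to 2.61 (Atf3), and no filled symbol lies below 0.

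At P42, 14 days after tamoxifen, 0 of 10 members passed in cerebrum, where 3 of 18205 genes tested did (0.0165%). DESeq2 called 1 member, Npas4, among 237 of 18205 genes called. At an unadjusted p under 0.05, 3 members (Egr2, Arc and Npas4) were past the threshold, as were 12.6% of all genes tested. The log2 fold changes of 9 of 10 members were below 0, with a median of -0.62 over the members and 0.01 over all genes, and mutants and wild types overlapped for all 10 (6.41% of all genes did not overlap). The members varied together between libraries, as given below, so these signs are not separate results. Nr4a3 and Nr4a2, relatives of Nr4a1 among the other rapid primary response genes, had log2 fold changes of -1.03 and -1.01 and did not pass either (adjusted p = 0.352 and 0.369).

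Arc had 69.4, 129, 33.9 and 56.1 CPM in mutant cerebrum at P42, against 235, 226, 64.3 and 141 CPM in wild type cerebrum. Its highest mutant stood between the wild types, and the log2 fold change of -1.26 had a 95% interval of -2.24 to -0.29 (adjusted p = 0.367). Egr2 had 5.15, 6.86, 1.59 and 1.71 CPM in mutants, against 13.8, 16.1, 3.07 and 13.4 CPM in wild types. Only wild type replicate 3 fell into the mutant range of Egr2, whose log2 fold change was -1.56 ± 0.56 (SE, adjusted p = 0.371). Npas4 had the smallest p: 9.26, 13.4, 6.93 and 9.63 CPM in mutants, against 13.2, 16.4, 12.9 and 18.9 CPM in wild types. The log2 fold change of Npas4 was -0.65 ± 0.17 (SE, unadjusted p = 0.00333, adjusted p = 0.324), and DESeq2 gave an adjusted p of 0.0398 for it.

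Egr1 had 217, 257, 92.7 and 125 CPM in mutant cerebrum at P42, against 430, 314, 200 and 222 CPM in wild type cerebrum, a log2 fold change of -0.76 ± 0.35 (SE, adjusted p = 0.405). Mutant replicates 3 and 4 were below every wild type, and mutant replicates 1 and 2 lay inside the wild type range. Nr4a1 (-0.66), Fosb (-0.58), Egr4 (-0.50) and Junb (-0.33) had adjusted p between 0.413 and 0.731, while Fos (-0.02, 95% interval -0.47 to 0.42) and Ier2 (0.08, 95% interval -0.40 to 0.55) were near 0.

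Markers of deep brain regions moved with these values. All 20 genes typical of thalamus, hypothalamus and midbrain had positive log2 fold changes in P42 cerebrum, with 0 past the test. These markers were listed with earlier results of these data known, so their shared sign is a description and no independent support. Their summed level was 903 to 1591 CPM in mutants against 260 to 544 CPM in wild types, and their mean log2(CPM + 1) was highest in mutant replicates 3 (5.31) and 4 (5.17). The excitatory neuron markers were lowest in the same libraries, at 4.58 and 5.13, against 6.39 to 6.85 in wild types. The deep region level did not overlap between mutants and wild types in summed CPM. As mean log2(CPM + 1), the scale of the covariate, it ran from 3.563 to 5.312 in mutants and 2.239 to 3.575 in wild types. Those ranges overlapped only narrowly, so the genotype and that level cannot be told apart in P42 cerebrum. A fit with the level as a covariate does not separate them. In that fit 0 members were called and the median log2 fold change of the members was 0.19. Junb (0.82), Egr4 (0.93), Nr4a1 (0.60), Ier2 (0.43), Egr1 (0.22) and Fos (0.15) were above 0, and Npas4 (-0.47), Egr2 (-0.11), Arc (-0.07) and Fosb (-0.002) were below 0. Mutant replicates 3 and 4 also had the lowest mean level of the members in their group, so leaving them out had to bring the members' difference up. Without them the median was -0.14 with 0 members called, and Egr2 had -0.92, Arc -0.81 and Npas4 -0.45. At P75 the same markers lay at 725 to 764 CPM in mutants against 671 to 783 CPM in wild types, summed over the 20 genes. Of the 20, 3 rose and 0 fell there, against 7.66% of all genes tested as higher and 6.62% as lower. Their log2 fold changes ran from -0.52 to 1.17, with a median of -0.01.

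In cerebellum at P42, 9 of 10 members passed the filter on low counts, and 0 of the 9 passed the test, where 2 of 17616 genes did (0.0114%). DESeq2 called 41 of 17616 genes, 0 of them members, and mutants and wild types overlapped for every member (3.43% of all genes did not overlap). Egr2 was left out by the filter, with 2, 7, 2 and 15 reads in mutants and 0, 7, 5 and 5 reads in wild types. At an unadjusted p under 0.05, 2 members (Fos and Npas4) were past the threshold, against 4.65% of all genes. Fos had 17.7, 15.4, 37.8 and 23.6 CPM in mutants, against 25.5, 52.0, 13.99 and 72.1 CPM in wild types, which gave a log2 fold change of -1.01 ± 0.36 (SE, adjusted p = 0.967). The wild type libraries spanned more than the mutant ones and overlapped them. Npas4 had 4.31, 4.61, 7.70 and 4.67 CPM in mutants, against 7.73, 4.44, 6.82 and 13.9 CPM in wild types, which gave a log2 fold change of -0.76 ± 0.27 (SE, adjusted p = 0.967). Egr1, Junb, Fosb and Arc had log2 fold changes between -0.04 and 0.07, with Arc bounded by a 95% interval of -0.41 to 0.49. Wild type replicate 4, the only female of its group, was above the group mean for 9 of 9 members, so sex and library cannot be told apart there. All 8 choroid plexus markers had negative log2 fold changes in these libraries (summed level 39.4 to 1026 CPM in mutants, 1359 to 2401 CPM in wild types), with 0 past the test. All 5 blood genes were negative too, with a median log2 fold change of -2.63 and 0 past the test (5 at an unadjusted p under 0.05), and their summed level was 2.90 to 20.4 CPM in mutants, 9.04 to 77.5 CPM in wild types. The part of either list in the members' values was not tested.

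Whether the genotype effect itself differed was tested as an interaction. Between tissues at P42, 0 of 10 members passed, as did 0 of 19614 genes (0%); DESeq2 called 7 genes, 0 of them members. At an unadjusted p under 0.05, 2 members were past the threshold, against 6.18% of all genes: Arc, with a difference of -1.26 ± 0.51 on the log2 scale (cerebrum minus cerebellum, SE, adjusted p = 0.732), and Fos, with 0.92 ± 0.43 (SE, adjusted p = 0.732). Between P75 and P42 in cerebrum, 0 of 10 members passed, against 1.36% of 19273 genes tested. All 10 differences were positive, with a median of 0.86 over the members and 0.01 over all genes. The share of all genes with a positive difference was not computed. The members varied together between libraries, as given below, so their shared sign is a description and not 10 separate results. The P42 values behind the 10 differences moved with the deep region markers given above. At an unadjusted p under 0.05, 5 members were past the threshold, against 14.1% of all genes.

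Egr2 came closest, with a difference between ages of 2.60 ± 0.65 on the log2 scale (P75 minus P42, SE, adjusted p = 0.0595), followed by Fosb with 1.18 ± 0.31 (SE, adjusted p = 0.0741) and Egr1 with 1.58 ± 0.42 (SE, adjusted p = 0.0756). DESeq2 called these 3, with 670 of 19273 genes called in all. So did edgeR without P42 mutant replicate 1, where calls over all genes numbered 1169 of 19760, against 263 of 19273 with every library. Without P42 mutant replicate 2 edgeR called Fosb and Egr1 among 210 genes, and without P42 wild type replicate 3 it called Egr2 among 346 genes. Arc had 1.67 ± 0.53 (SE, adjusted p = 0.152) and Ier2 0.86 ± 0.27 (SE, adjusted p = 0.139). With males only, 0 members passed, against 135 of 19898 genes, and the median difference was 1.27 over the members and 0.02 over all genes. Among other genes of the response, Jun (1.40 ± 0.22, SE, adjusted p = 0.00266) and Btg2 (1.25 ± 0.27, SE, adjusted p = 0.0259) passed, 2 of 34 other rapid primary response genes.

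**Figure D4:**
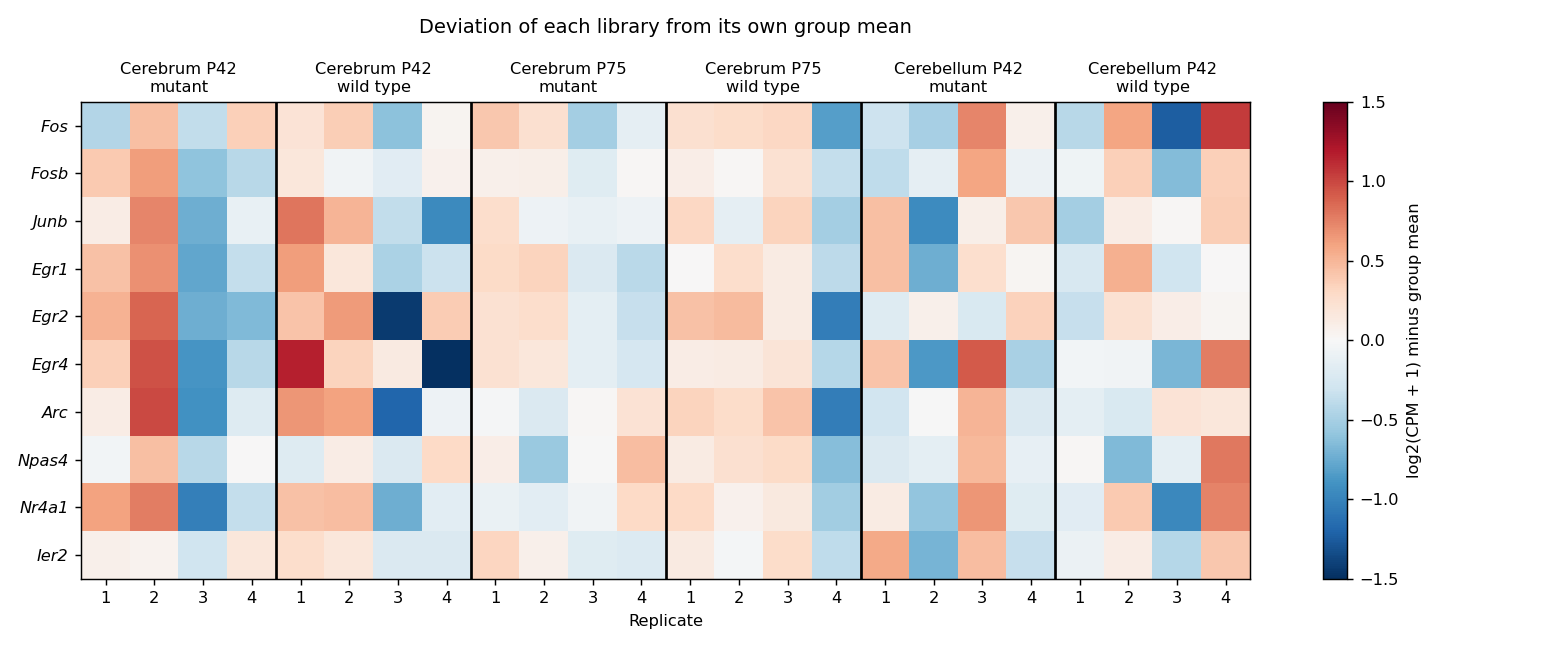
Deviation of each library from the mean of its own group, in log2(CPM + 1) units on the colour scale, for the members (rows) and the 24 libraries (columns, replicates 1 to 4 within each group). Columns tend to have 1 colour throughout: wild type replicate 4 of cerebrum at P75 is blue for all 10 members and mutant replicate 2 of cerebrum at P42 is red for all 10.

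Apart from genotype, the members varied together from library to library. After the mean of each group was taken out, 45 of 45 pairs of members correlated positively over the 16 cerebrum libraries, with a median Pearson r of 0.63 (range 0.0804 to 0.909), against a mean of 0.00305 over all pairs of 15160 genes. With exact permutation of libraries within groups, 25 of 45 pairs passed after adjustment over the 45 by Pearson's r and 20 by Spearman's rho. The share of other gene pairs that would pass was not computed. The median was 0.66 within P42, 0.77 within P75, 0.71 within mutants and 0.72 within wild types. Wild type replicate 4 at P75 stood 0.613 below its group mean, averaged over the members. The medians within P75 and within wild types were not computed without it. Without the 2 libraries farthest from the median of the first gene of each pair, the median r was 0.584. These coefficients share the libraries, so the pairs are not independent of each other.

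**Figure D5:**
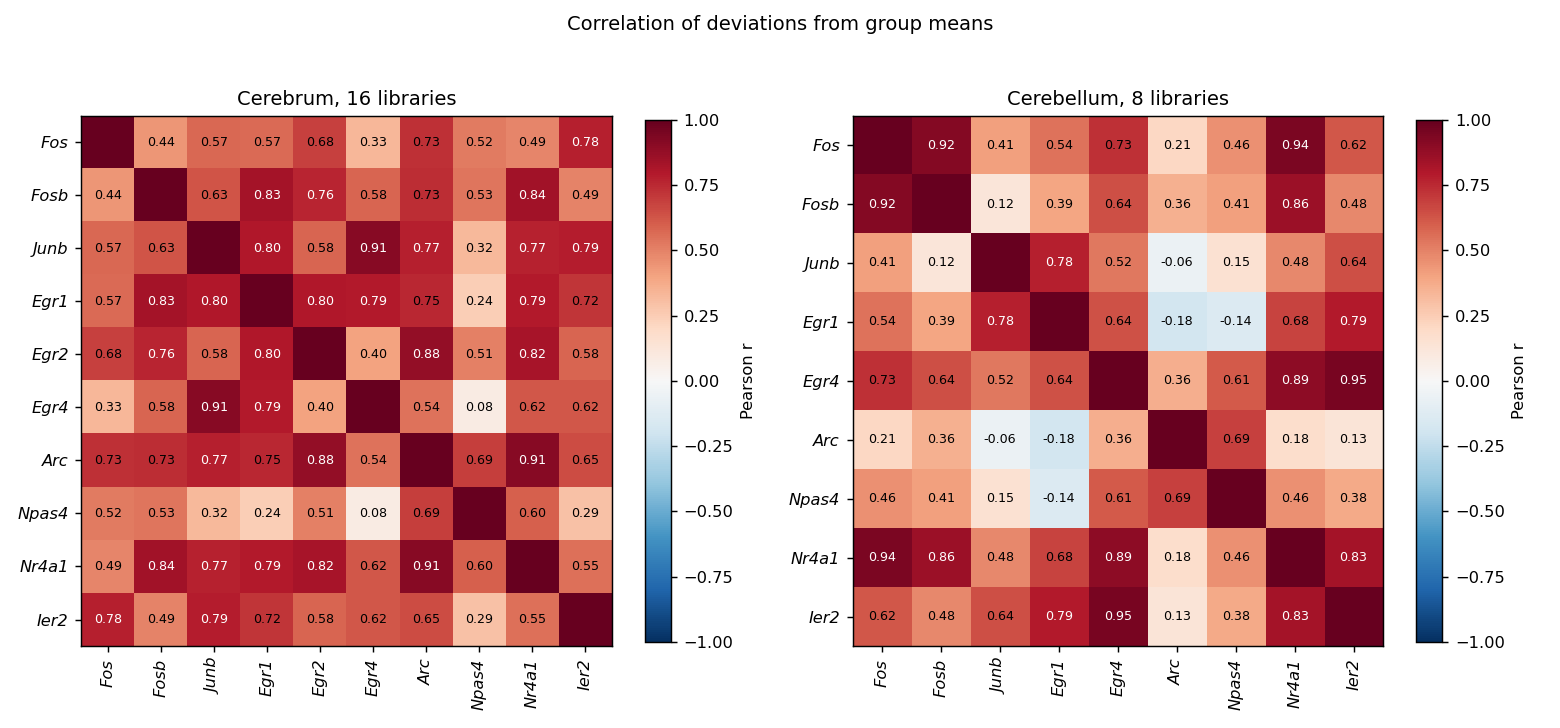
Pearson r between the deviations of each pair of members from their group means, over 16 cerebrum libraries (left, 10 members) and 8 cerebellum libraries (right, 9 members); the colour scale runs from -1 to 1. In cerebrum every pair is positive, from 0.0804 (Egr4 with Npas4) to 0.909 (Arc with Nr4a1), and in cerebellum Arc stands apart from Junb and Egr1.

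Arc with Nr4a1 was the closest pair in cerebrum, at r = 0.909 and rho = 0.903 (exact permutation, adjusted p = 0.000882 and 0.00163), and r was 0.91 without the 2 farthest libraries, 0.921 within P42 and 0.923 within P75. Junb with Egr4 followed at r = 0.908 and rho = 0.853 (exact permutation, adjusted p = 0.000882 and 0.0021), or 0.845 without the 2 farthest libraries. Arc correlated at 0.5 or above with 9 of the 9 other members, and Npas4 with 5 of 9. Over all 15160 genes, 5.32% reached 0.5 with Arc and 3.32% with Npas4. Npas4 was the loosest member: its r was 0.0804 with Egr4 and 0.244 with Egr1 (exact permutation, adjusted p = 0.739 and 0.401). Not every pair held at both ages, since Egr1 with Nr4a1 had r = 0.957 within P42 and 0.0894 within P75.

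The members' common level differed most between libraries at P42. Mutant replicate 2 stood 0.658 above its group mean, averaged over the members on the log2(CPM + 1) scale, and mutant replicate 3 stood 0.673 below it. Among wild types at P42, replicate 1 stood 0.456 above and replicate 3 stood 0.53 below the mean. The SD between libraries of one group had a median of 0.66 over the members at P42 in cerebrum (0.25 over all genes), 0.50 over 9 members in cerebellum (0.24 over all genes) and 0.32 at P75 (0.17 over all genes). Egr4 varied most at P42 in cerebrum, with an SD at the 99.4th percentile of all genes tested, and Ier2 least, at the 43.4th. Sequencing depth went little with the common level (r = 0.28 over 16 cerebrum libraries, as a description).

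The genes outside the 10 whose deviations were most like the members' mean in cerebrum were Dact1 (r = 0.91), Diexf (0.904), Dusp6 (0.876), Acer2 (0.873) and Trib1 (0.869), over 16 libraries and 15150 genes. Dusp6 encodes a phosphatase that switches off ERK kinases, and it and Trib1 are among the other rapid primary response genes. The mean of that list of 34 genes followed the members with r = 0.924, and 19 of its 33 expressed genes reached 0.5, against 6.51% of all genes. Excitatory neuron markers followed the members with r = 0.587 and deep region markers with r = -0.573, as descriptions over the same libraries, and their part in the co-variation was not tested.

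In cerebellum the 36 pairs of 9 members had a median r of 0.504 over 8 libraries (range -0.182 to 0.948), and 33 of 36 were positive. After adjustment 0 of the 36 passed, while 8 were past an unadjusted p of 0.05 by Pearson's r and 8 by Spearman's rho. Egr4 with Ier2 had r = 0.948 and rho = 0.905, and Fos with Nr4a1 had r = 0.945 and rho = 0.929 (exact permutation, adjusted p = 0.1 and 0.0833 by r, 0.156 for both by rho). With males only the median r was 0.274. Arc, closely tied to other members in cerebrum, had r of -0.0556 with Junb and -0.182 with Egr1 in cerebellum; the difference between the tissues was not tested. The genes most like the members' mean there were Rras2 (r = 0.993), Thop1 (0.976), Hnrnpf (0.966), Srf (0.961) and Kdm5c (0.961), over 8 libraries and 15717 genes. Of all genes there, 21.3% reached 0.5, so the top of this ranking is only a description. Srf encodes the serum response factor, which drives many immediate early genes, and its part in the members' values was not tested.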

How the data were processed

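The authors deposited whole-number read counts per gene for the P42 and P75 libraries in separate tables, with gene lengths, and a table per comparison of log2 fold changes and adjusted p-values whose columns, per the file headers, are those of DESeq2 output. Per the submitters' processing notes, HISAT2, DESeq2 and mm10 were used; the sources used here do not give the read counter, its strand setting or the covariates behind those tables. The authors' log2 values and p-values were used only for comparison.

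From the counts, each tissue and age was compared with edgeR 4.0.16 in R 4.3.3: filterByExpr by genotype, TMM scaling, quasi-likelihood F test, two-sided, sex as a covariate at P42, Benjamini-Hochberg adjustment over all genes tested, called at 0.05. The step was tested on simulated data. Interactions used 16 libraries. Levels are TMM-scaled CPM within each comparison of 8 libraries, and deviations use log2(CPM + 1), a pseudocount of 1. Correlations between members used exact permutation of libraries within groups, two-sided. Alternatives were DESeq2 1.42.0, other scalings and filters, no sex term, an adjusted p under 0.01, a replicate block and single libraries left out. Leaving out 2 mutants in cerebrum at P42 and males only in the age interaction were chosen after seeing the data.

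The members and the 17 gene lists were chosen with earlier results of these data known. The text names all members, at most 2 genes of a list with the smallest p in a comparison, and 5 genes most like the members' mean in each tissue; Atf3 and Nr4a3 in a caption are the ends of the plotted range. Each mutant library correlated best with the wild type of its own number at P75, but not throughout at P42. Replicate numbers were therefore not taken as pairs in the main fits, and a replicate block was an alternative.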

Additional observations from a re-analysis of the deposited data

Results flagged for a closer look

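Of 60 groups of 4 libraries (10 members in 6 groups), 5 held a library far from the other 3 by Dixon's test, and chance flags about 1 in 20 groups. In wild type cerebrum at P75, replicate 4 was far below the others for Fos (20.2 CPM, the others 43.5 to 45.8), for Egr4 (45.34 CPM, the others 66.6 to 70.2) and for Arc (110.9 CPM, the others 277 to 308). These 3 are 1 library, which was the lowest of its group for all 10 members, so they are not independent of each other. In mutant cerebrum at P75, replicate 1 was far above the others for Junb (115.8 CPM, the others 88.8 to 91.3). In mutant cerebellum at P42, replicate 3 was far above the others for Npas4 (7.704 CPM, the others 4.31 to 4.67).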

How the results depend on the processing

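The count of 5 members that rose at P75 was 3 at an adjusted p under 0.01 and between 3 and 5 with single libraries left out; Fosb, Egr1 and Ier2 passed in all 8 of those. Without a filter on low counts the members called numbered 7 in cerebrum at P75, with Fos and Arc added, 4 in cerebrum at P42, 1 in cerebellum, 2 in the tissue interaction and 7 in the age interaction; DESeq2 called 1 in cerebrum at P42 and 3 in the age interaction, where leaving out single libraries gave 0 to 3. Wild type tissues gave 7 to 9 (Egr2 included) with single libraries left out. Over all genes, the calls at P75 numbered 1356 to 2783 with single libraries left out (2502 with all). At P75, 1086 of 17523 genes were called at an adjusted p under 0.01, 684 of them higher, and 3241 of 33681 with no filter. With single libraries left out, 4074 to 5856 genes were called between wild type tissues and 124 to 1169 in the age interaction. Calls over all genes numbered 237 with DESeq2 and 1312 with no filter in cerebrum at P42 (3 with edgeR and the filter), 41 and 153 in cerebellum (2), 7 and 279 in the tissue interaction (0), and 670 and 1176 in the age interaction (263).

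Values turned sign only in results that did not pass. In cerebrum at P42 Fos had 0.048 by library size only, 0.021 with no sex term, 0.013 with the replicate block and 0.15 with the deep region covariate, under which Junb had 0.82, Egr1 0.22, Egr4 0.93 and Nr4a1 0.60. Without the mutants with the highest deep region markers, Junb had 0.065 and Egr4 0.11. In cerebellum Junb had 0.097 with no sex term and 0.031 with the replicate block, and the tissue interaction of Npas4 was -0.018 with no sex term. With single libraries left out, cerebrum at P42 gave -0.14 to 0.22 for Fos, -0.66 to 0.059 for Junb and -0.039 to 0.23 for Ier2. Cerebellum gave -0.10 to 0.28 for Fosb, -0.52 to 0.29 for Junb, -0.39 to 0.24 for Egr1 and -0.094 to 0.14 for Arc. The tissue interaction gave -0.67 to 0.065 for Junb, -0.31 to 0.65 for Egr4, -0.15 to 0.24 for Npas4 and -0.48 to 0.21 for Nr4a1, and the age interaction gave -0.028 to 0.87 for Egr4. The cause of these changes was not tested. Among all single gene values with single libraries left out, 572 kept direction and call, 39 turned sign, 15 no longer passed and 6 newly passed; under other settings these were 422, 13, 6 and 21.

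The median correlation of members stayed between 0.546 and 0.740 in cerebrum and between 0.413 and 0.634 in cerebellum with single libraries left out.

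With the replicate number as a block, 5 members rose at P75 and 0 were called in either tissue at P42. Over all genes the block gave 3537 calls of 17523 at P75, 1693 of them higher. There edgeR gave an adjusted p of 0.0029 for Junb and 0.0583 for Fos. Correlations of same-numbered libraries were 0.159, 0.0796, 0.303 and 0.0067 in cerebrum at P42, 0.0821, -0.0807, -0.447 and 0.0507 in cerebellum, and 0.0814, 0.226, 0.125 and 0.0521 at P75. At P75 every mutant library correlated best with the wild type of its own number. The block was not fitted for the interactions or for the tissues. Egr2 in cerebellum, with at most 15 reads a library, was under the filter. Total counts ran from 13832721 to 16786084 in wild type cerebellum and from 18090297 to 23175864 in wild type cerebrum at P42, without overlap. In mutants at P42 they overlapped, from 14060626 to 23132504 in cerebellum and from 15500359 to 21595123 in cerebrum. The part of depth in the low Egr2 counts was not tested.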
